A study of Arabidopsis thaliana with 3 samples.

Results

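The binding of AIPP3 was examined at 49 genes of the circadian clock and of the photoperiod, age, vernalization and autonomous flowering pathways, out of 27444 annotated nuclear protein-coding genes of Arabidopsis thaliana. AIPP3 is a BAH domain protein that binds H3K27me3, a histone mark of repressed genes, and the study examined it together with the PHD proteins AIPP2 and PAIPP2 and the Pol II phosphatase CPL2, and flowering time was a trait of its mutants. The genes were chosen by their known role and listed by locus, without MADS-box genes, and the list was drawn up with earlier results of these peak lists known. All shares below are therefore descriptions. ChIP-seq with a Myc antibody, which recovers the DNA bound by a tagged protein, was available for 2 AIPP3-4Myc libraries, labelled replicates 1 and 2, and for 1 Col-0 library without the tag, the background of the antibody. All were from seedlings 13 days old of ecotype Col-0, grown at 23 °C with 16 h of light and 8 h of dark. The growth medium held 1% sucrose. Per the methods of the study, tagged AIPP3 genomic DNA was driven by its native promoter and put into the corresponding mutant, and plants of the T3 generation were used. The AIPP3-4Myc plants thus differ from Col-0 in the mutation and the transgene as well as in the tag. Whether the AIPP3-4Myc libraries share a transgenic line is not given in the sources used here, and neither is the hour of harvest, although transcripts of many of these genes rise and fall over the day.

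The plant clock is a set of transcription factors that repress and activate each other, with morning factors such as CCA1 and LHY, a sequence of PRR repressors through the day and the evening complex of ELF3, ELF4 and LUX at night. Its output sets when CONSTANS (CO) protein can accumulate, and in long days CO activates the florigen gene FT in leaves. Other routes reach the same point through age (SPL factors and their AP2-like opponents) or by lowering the floral repressor FLC (vernalization and the autonomous pathway). FLC and FT are well-known sites of H3K27me3.

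The lists held 926 and 430 nuclear peaks in AIPP3-4Myc replicates 1 and 2, and 16 in Col-0. Each peak carries a MACS score, 10 times the negative log10 of its p-value, so a score of 50 is a p-value of 1e-05. The lowest nuclear scores were 50.01 in replicate 1, 50.06 in replicate 2 and 82.83 in Col-0. The number of reads behind each list is unknown. Scores were therefore read within a list only, and a gene without a peak is one that did not pass the threshold of the authors in that library. A gene was called bound where a peak overlapped by at least 1 bp its target region, which runs from 1 kb before the start of transcription (TSS) to its annotated end (TTS). With 2 libraries against 1, an exact permutation of libraries cannot give a p-value below 0.333, so AIPP3-4Myc and Col-0 were not tested against each other.

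Of the 49 clock and flowering-time genes, 7 had a peak in an AIPP3-4Myc library (14.3%, against 5.72% of all protein-coding genes) and 42 had none. GRP7, an RNA-binding protein of the clock output, was the only member bound in both replicates. TSF, TFL1, FKF1, PRR5 and RVE8 were bound in replicate 1 alone (10.2% of members, against 3.44% of all protein-coding genes). GRP8 was bound in replicate 2 alone (2.04%, against 0.609%). No member was bound in Col-0. Replicate 1 peaks bound 6 members (12.2%), against 5.11% of all protein-coding genes. Replicate 2 peaks bound 2 members (4.08%), against 2.28%. Both replicates bound 1 member (2.04%), against 1.67%, a share near that of all genes. Col-0 peaks bound 0 members, against 0.0547% of all protein-coding genes. When peaks were required to score at least 100, which is a p-value of 1e-10, GRP7 was the only member left. It was then 1 of 49 (2.04%) in each AIPP3-4Myc replicate, against 1.31% of all protein-coding genes in replicate 1, 0.685% in replicate 2 and 0.496% in both.

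**Figure D1:**
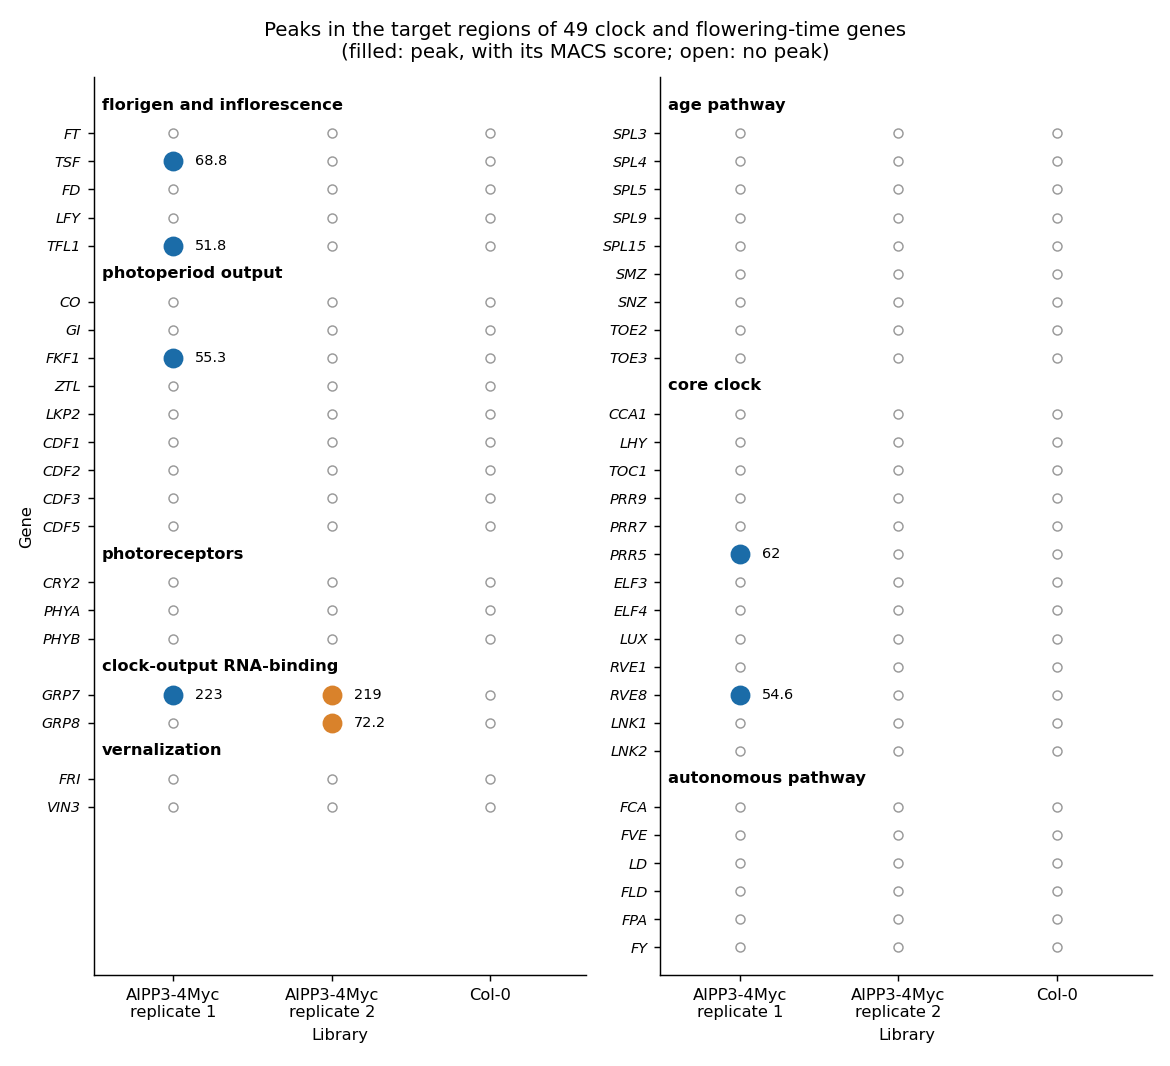
Peaks in the target regions of the 49 genes, grouped by pathway (rows) and by library (columns). A filled point is a peak, with its MACS score beside it, and an open point is a gene without a peak. GRP7 is filled in both AIPP3-4Myc columns, 6 other genes are filled in 1 of them, and the Col-0 column has no filled point.

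Bound members had shorter target regions in the median than unbound members. Target regions had a median length of 3805 bp over the 49 members and of 3078 bp over all protein-coding genes. The median was 3240 bp for the 7 bound members and 4041 bp for the 42 others. Long genes without a peak included the blue-light and clock regulator GI, with a gene of 6040 bp, and FCA, an RNA-binding protein of the autonomous pathway, with 8385 bp.

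Of all member peaks, those at GRP7 had the highest scores in both replicates, and its relative GRP8 had a peak of middle rank in replicate 2. GRP7 (AT2G21660, chr2:9265084-9266557, minus strand) encodes a glycine-rich RNA-binding protein whose transcript cycles under the clock and which binds its own pre-mRNA. Its peak lay at chr2:9264692-9266656 in replicate 1, where it scored 223, and at chr2:9264861-9266665 in replicate 2, where it scored 219. These scores ranked 24th of 926 and 16th of 430 nuclear peaks, within the upper 2.59% and 3.72% of the lists. The peaks shared 1796 bp, or 91.4% of the replicate 1 peak and 99.5% of the replicate 2 peak. Their ends near the TSS differed by 9 bp and their ends beyond the TTS by 169 bp. Both peaks covered 100% of the gene, began at -99 bp from the TSS in replicate 1 and at -108 bp in replicate 2, and ended 392 bp and 223 bp past the TTS. No other annotated gene had its target region under either peak, and the nearest Col-0 peak was 2257679 bp away.

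GRP8 (AT4G39260, named CCR1 in the annotation, chr4:18273829-18275216, minus strand) is the close relative of GRP7 and is part of the same feedback. It had a peak in replicate 2, at chr4:18273769-18275168, which scored 72.2 and ranked 229 of 430. In replicate 1 the nearest peak was 8.73 kb from its target region, and Col-0 had no peak on chromosome 4. The replicate 2 peak covered 96.5% of the gene, from 48 bp downstream of the TSS to 60 bp past the TTS. The coding sequences of GRP7 (531 bp) and GRP8 (510 bp) were 73.7% identical in a global alignment, and their longest identical run was 39 bp. Reads within that run would fit both genes equally well, and the share of the GRP8 signal that came from such reads was not tested. The middles of both peaks are shown to let the genes be compared, at chr2:9265608-9265907 for GRP7 (the stretch shared by the replicates) and chr4:18274318-18274617 for GRP8. They are 300 bases each of TAIR10.1 on the minus strand, 5′ to 3′ along the gene, with coding bases in capitals.
GRP7: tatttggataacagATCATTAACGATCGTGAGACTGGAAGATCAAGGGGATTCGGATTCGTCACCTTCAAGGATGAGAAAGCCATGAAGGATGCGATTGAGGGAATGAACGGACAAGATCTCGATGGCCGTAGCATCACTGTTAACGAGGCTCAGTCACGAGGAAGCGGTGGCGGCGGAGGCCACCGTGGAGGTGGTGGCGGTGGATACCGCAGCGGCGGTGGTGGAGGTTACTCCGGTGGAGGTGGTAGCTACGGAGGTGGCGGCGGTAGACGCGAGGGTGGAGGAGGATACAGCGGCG
GRP8: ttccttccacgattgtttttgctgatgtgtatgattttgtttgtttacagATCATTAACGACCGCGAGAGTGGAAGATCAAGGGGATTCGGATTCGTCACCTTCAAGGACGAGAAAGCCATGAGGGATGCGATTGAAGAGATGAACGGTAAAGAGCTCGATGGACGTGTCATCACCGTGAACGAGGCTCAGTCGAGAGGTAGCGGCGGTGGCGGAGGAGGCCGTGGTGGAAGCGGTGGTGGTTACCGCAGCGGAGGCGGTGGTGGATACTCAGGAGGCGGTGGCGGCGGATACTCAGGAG
Both windows ran from an intron into a coding exon that opens with the same bases in both genes and goes on into the glycine-rich repeats. GC made up 57.7% of the GRP7 window and 54.7% of the GRP8 window, above 40.5% and 42.1% of the whole GRP7 peaks in replicates 1 and 2 and 44.4% of the GRP8 peak.

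**Figure D2:**
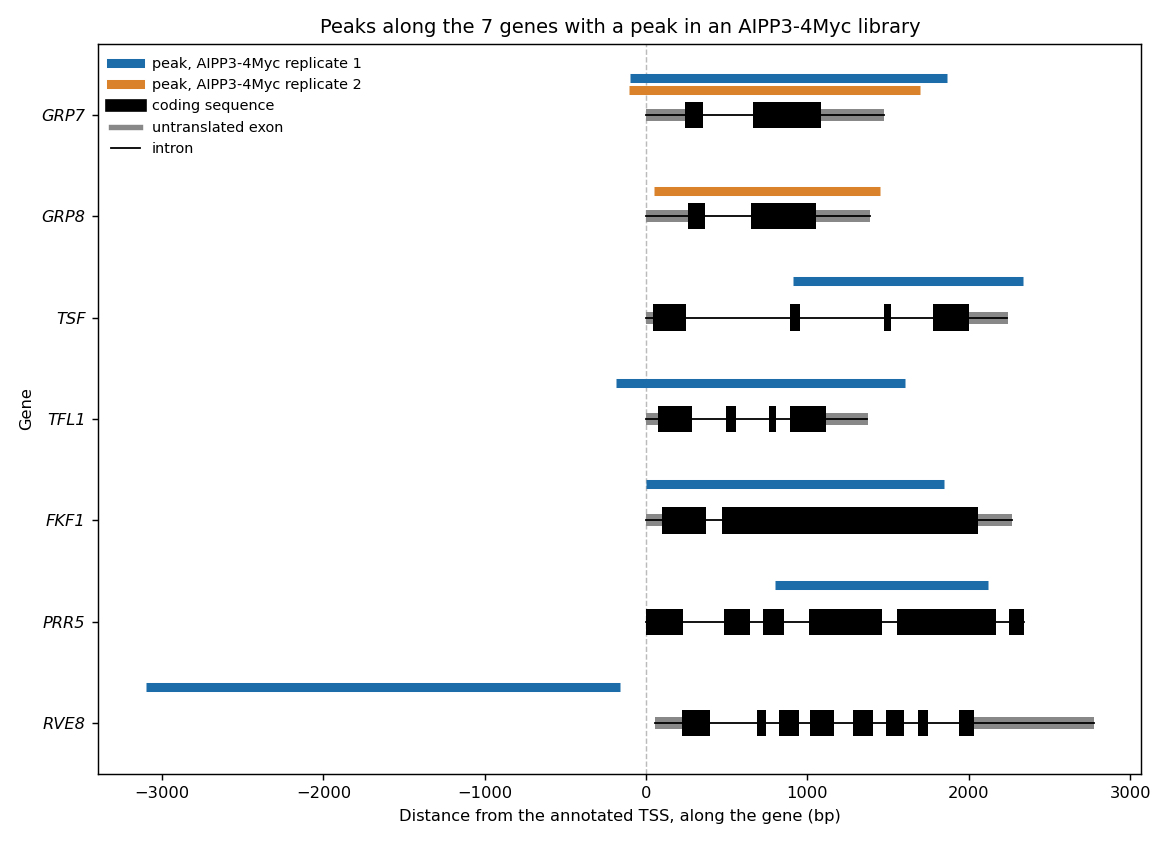
Peaks along the 7 genes bound in an AIPP3-4Myc library, plotted by distance from the annotated TSS in bp. Coloured bars are peaks by library, and the transcript with the longest coding sequence is drawn below each. At GRP7 the bars of both replicates lie over the same 1796 bp and cover the whole gene, and at RVE8 the bar ends at -161 bp, before the gene.

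The peaks at GRP7 reached into its promoter, where the clock acts through the evening element, AAAATATCT on either strand. In the 1 kb upstream of GRP7 this motif occurred 3 times, at -76 to -68, -55 to -47 and -31 to -23 bp from the TSS. All of these lay under the peak of replicate 1, which started at -99, and of replicate 2, which started at -108. GRP8 had the motif once, at -12 to -4, and the replicate 2 peak started downstream of it at 48. The stretches that hold them are printed 5′ to 3′ along the gene with evening elements in capitals, at chr2:9266558-9266677 for GRP7 and chr4:18275217-18275276 for GRP8, both on the minus strand of TAIR10.1.
GRP7: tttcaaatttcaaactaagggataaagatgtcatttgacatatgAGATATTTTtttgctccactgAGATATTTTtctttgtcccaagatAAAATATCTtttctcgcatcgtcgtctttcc
GRP8: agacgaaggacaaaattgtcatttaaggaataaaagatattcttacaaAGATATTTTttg
Over the 1 kb upstream of the TSS, the evening element was found in 11 of 49 members (22.4%) and in 1987 of 27444 protein-coding genes (7.24%). Among the 7 bound members it was found in 4, namely GRP7, GRP8, FKF1 and PRR5, and among the 13 core clock genes also in 4. Only at GRP7 did the motif lie under a peak of the gene. At FKF1 it lay at -373 to -365 and -186 to -178, upstream of the peak, which started at -3. At PRR5 it lay at -716 to -708, -292 to -284 and -187 to -179, upstream of the peak, which started at 800. The G-box, CACGTG, was found in 28.6% of members and 14.8% of all promoters. The CCA1-binding site AAAAATCT was found in 24.5% of members and 21.1% of all promoters, the GAGA motif GAGAGA in 61.2% and 57.1%, and the telobox AAACCCTA in 10.2% and 12.4%. Among the 7 bound members the GAGA motif was found in 4, the CCA1-binding site in 2, and the G-box and the telobox in 1 each. Among the 13 core clock genes the GAGA motif was found in 8, the G-box in 7, the CCA1-binding site in 3 and the telobox in 1. Both strands were searched and the motifs were counted independently of each other. A match describes the letters of the promoter and not a bound site.

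Among the 5 florigen and inflorescence genes, TSF and TFL1 were bound in replicate 1 and FT, FD and LFY in neither replicate. TWIN SISTER OF FT (TSF, AT4G20370, chr4:11000771-11003010, minus strand) is the closest relative of FT and also promotes flowering. Its replicate 1 peak, at chr4:11000676-11002098, scored 68.8 and ranked 520 of 926. In replicate 2 the nearest peak was 151 kb from the target region. The TSF peak lay in the 3′ part of the gene, from 912 to 2334 bp downstream of the TSS, and 55.0% of it was intron. TERMINAL FLOWER 1 (TFL1, AT5G03840, chr5:1024500-1025872, minus strand) belongs to the same protein family but keeps the shoot tip from turning into a flower. Its replicate 1 peak, at chr5:1024265-1026060, covered the whole gene, from -188 bp at the TSS to 235 bp past the TTS. The score of 51.8 ranked 872 of 926, close to the lowest score of the list, 50.01. In replicate 2 the nearest peak was 186 kb away.

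FT itself (AT1G65480, chr1:24331373-24333999, plus strand) had no peak in its target region in any library. The nearest peaks lay 35542 bp from it in replicate 1 and 267910 bp in replicate 2, and the nearest Col-0 peak 2721371 bp. By ChIP-qPCR, an assay of chosen regions, the study reported AIPP3 enrichment at its selected target genes, among which it named FT. The ChIP-qPCR and ChIP-seq samples were independent. From snapshots of its AIPP3 ChIP-seq signal, the study also stated specific binding at the selected targets. Only peak lists were read here, so that signal was not examined at FT. The study also reported raised FT RNA in mutants of AIPP3, of CPL2 and of both PHD genes. The missing FT peak therefore does not show that AIPP3 is absent from FT. The coding sequences of TSF and FT, 528 bp each, were 82.2% identical with a longest identical run of 29 bp. TFL1 and FT were 60.5% identical. FD, the bZIP factor that FT protein joins at the shoot tip, had its nearest peaks at 25.8 kb in replicate 1 and 25.6 kb in replicate 2. The meristem identity factor LFY had them at 208 kb and 251 kb. The middles of the TSF and TFL1 peaks, 150 bases each, are given along the gene with coding bases in capitals, from the minus strand at chr4:11001312-11001461 for TSF and chr5:1025088-1025237 for TFL1. They show AT-rich sequence from the middles of these peaks, and these windows were mostly intron. The whole TFL1 peak was 28.0% intron, 29.7% coding sequence and 18.7% untranslated, with 23.6% outside the gene.
TSF: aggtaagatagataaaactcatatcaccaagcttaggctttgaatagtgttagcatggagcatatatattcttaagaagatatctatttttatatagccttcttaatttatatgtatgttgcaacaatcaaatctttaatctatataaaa
TFL1: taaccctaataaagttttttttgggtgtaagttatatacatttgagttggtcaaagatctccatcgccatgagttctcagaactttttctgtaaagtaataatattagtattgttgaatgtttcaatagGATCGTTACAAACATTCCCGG
The TSF window held no coding base and 26.0% GC, and the TFL1 window held 21 coding bases and 32.0% GC. Over the whole peaks GC was 33.8% at TSF and 33.6% at TFL1, below the median of the replicate 1 list, 40.3%.

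Among the 9 photoperiod output genes, which pass clock and light information to CO, FKF1 was bound in replicate 1 and none was bound in replicate 2. FKF1 (AT1G68050, chr1:25508639-25510907, plus strand) encodes a blue-light receptor and F-box protein that removes the CDF repressors of CO. Its replicate 1 peak, at chr1:25508636-25510483, scored 55.3 and ranked 782 of 926. The peak began at -3 bp from the TSS, covered 81.3% of the gene, and 89.1% of it was coding sequence. The nearest replicate 2 peak was 111 kb away. The related F-box receptors ZTL and LKP2, whose coding sequences were 64.5% and 64.3% identical to FKF1, had no peak within 49757 bp and 114847 bp in replicate 1. CO had its nearest peaks at 73399 bp in replicate 1 and 183960 bp in replicate 2. GI, the partner of FKF1, had them at 27336 bp and 27621 bp. The CDF genes CDF1, CDF2, CDF3 and CDF5 were bound in neither replicate. Among the 8 unbound genes of the group, the distance ran from 12.6 kb at CDF1 to 115 kb at LKP2 in replicate 1.

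Among the 13 core clock genes, PRR5 and RVE8 were bound in replicate 1 and none was bound in replicate 2. PRR5 (AT5G24470, chr5:8356204-8358546, minus strand) is one of the daytime repressors of CCA1 and LHY. Its replicate 1 peak, at chr5:8356429-8357746, scored 62.0 and ranked 642 of 926. The peak lay inside the gene, from 800 to 2117 bp downstream of the TSS, and 81.2% of it was coding sequence. In the annotation used, the PRR5 gene starts at its first coding base. Its distances, target region and motif positions were therefore measured from that base. In replicate 2 the nearest peak was 56.8 kb away. The related genes TOC1, PRR7 and PRR9 were bound in neither replicate, with nearest replicate 1 peaks at 95282 bp, 94950 bp and 38743 bp. Their coding sequences were 46.5%, 49.4% and 53.7% identical to PRR5. The middles of the FKF1 and PRR5 peaks lay in or at the edge of coding exons. The 150 bases are given along the gene with coding bases in capitals, from the plus strand at chr1:25509484-25509633 for FKF1 and the minus strand at chr5:8357012-8357161 for PRR5.
FKF1: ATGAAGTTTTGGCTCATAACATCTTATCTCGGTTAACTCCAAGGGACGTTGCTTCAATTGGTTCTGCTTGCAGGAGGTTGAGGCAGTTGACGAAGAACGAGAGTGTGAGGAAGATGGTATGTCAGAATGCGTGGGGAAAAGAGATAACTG
PRR5: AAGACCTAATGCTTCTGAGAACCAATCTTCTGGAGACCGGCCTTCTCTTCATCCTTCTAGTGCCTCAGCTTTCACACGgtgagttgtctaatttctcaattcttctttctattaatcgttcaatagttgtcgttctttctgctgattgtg
All 150 bases were coding at FKF1 and 78 at PRR5, and GC over the whole peaks was 46.2% at FKF1 and 44.2% at PRR5.

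RVE8 (AT3G09600, chr3:2946239-2949017, plus strand) is a MYB-like factor that activates evening genes. The replicate 1 peak assigned to it, at chr3:2943137-2946078, scored 54.6, ranked 799 of 926 and did not touch the gene. It ended at -161 bp from the TSS and shared 840 bp with the target region, the smallest such overlap of all member peaks. It also touched the target regions of 4 other genes, AT3G09580, AT3G09590 and the tRNA genes AT3G09585 and AT3G09595. RVE8 was no longer bound when the gene body alone was used, when the peak midpoint had to lie in the target region, or when the peak went to the nearest TSS. In replicate 2 the nearest peak was 19.5 kb away.

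LUX, the DNA-binding member of the evening complex (AT3G46640, chr3:17183042-17186959, plus strand), was the clock gene with a peak nearest to, but outside, its target region in both replicates. The peak lay at chr3:17178381-17180302 in replicate 1, scoring 141 with rank 98 of 926, and at chr3:17178373-17180328 in replicate 2, scoring 153 with rank 42 of 430. They ended 1740 bp and 1714 bp before the target region and touched the target regions of the neighbouring genes RDUF1 (AT3G46620) and MIR5651 (AT3G07515). With a target region that began 3 kb upstream of the TSS, LUX counted as bound in both replicates. ELF3 and ELF4, its partners, had nearest peaks at 14831 bp and 9568 bp in replicate 1. For CCA1 the distance was 51727 bp and for LHY 18454 bp in replicate 1, against 101789 bp and 18517 bp in replicate 2.

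None of the 9 age pathway genes was bound in any library. Of these, SPL3, SPL4, SPL5, SPL9 and SPL15 encode factors that promote flowering as the plant ages, and SMZ, SNZ, TOE2 and TOE3 encode AP2-like repressors of FT. At SPL5 a replicate 1 peak, with a score of 75.2, lay 307 bp upstream of the target region, the smallest distance among unbound members. It touched the target regions of AT3G15280, AT3G15290 and AT3G03075. With a target region that began 3 kb upstream of the TSS, SPL5 counted as bound in replicate 1. At SPL4 both replicates had a peak downstream, 4.25 kb from the target region with a score of 134 in replicate 1 and 4.55 kb with a score of 62.5 in replicate 2, and these touched the target regions of AT1G53163 and AT1G53165. At SPL3 a replicate 2 peak with a score of 63.2 lay 3.28 kb downstream and touched those of AT2G33820 and AT2G33830. For the repressors, the distances in replicate 1 were 15335 bp at TOE2, 18532 bp at SMZ, 20136 bp at SNZ and 26158 bp at TOE3.

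The photoreceptors CRY2, PHYA and PHYB, the vernalization genes FRI and VIN3, and the 6 autonomous pathway genes FCA, FVE, LD, FLD, FPA and FY had no peak in any library. FRI activates FLC and VIN3 helps silence it in the cold through H3K27me3, whereas the autonomous genes lower FLC through RNA processing and chromatin. The distance to the nearest replicate 1 peak ran from 17.3 to 59.1 kb for the photoreceptors, was 27.4 kb at FRI and 55.2 kb at VIN3, and ran from 39.5 to 121 kb for the autonomous genes. In replicate 2 it ran from 141 to 565 kb for the photoreceptors, was 102 kb at FRI and 56.4 kb at VIN3, and ran from 39.4 to 438 kb for the autonomous genes. The median over the autonomous genes was 92.8 kb in replicate 1, the largest of the pathways there, and 116 kb in replicate 2, below 150 kb for the photoreceptors and 186 kb for the florigen group.

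**Figure D3:**
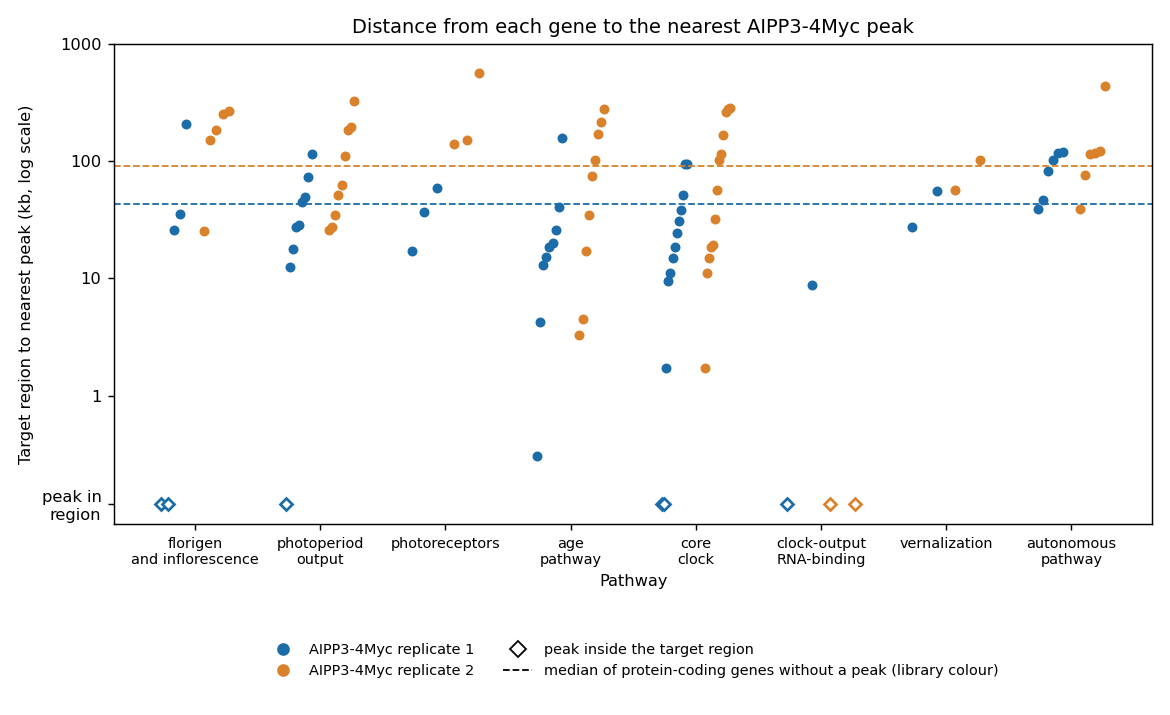
Distance in kb (log scale) from the target region of each gene to the nearest peak of AIPP3-4Myc replicates 1 and 2, by pathway. Diamonds at the bottom are genes with a peak in the target region, and dashed lines are the medians of protein-coding genes without a peak, 42.9 kb in replicate 1 and 91.7 kb in replicate 2. The unbound members lie on both sides of the lines, with medians of 30.8 kb and 102 kb.

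Over all unbound members the distance to the nearest peak was similar in size to that of other genes. In replicate 1 the median was 30.8 kb for 43 members and 42.9 kb for the 26041 protein-coding genes without a peak, and 6.98% and 8.16% of them had a peak within 5 kb. In replicate 2 the medians were 102 kb and 91.7 kb, and the shares within 5 kb were 6.38% and 3.91%. The replicate 2 list is shorter, so distances were not compared between the libraries.

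Within the lists, the peaks at members other than GRP7 had scores in the middle or lower part. The 6 member peaks of replicate 1 had a median score of 58.7 and the whole list a median of 72.7. TSF, PRR5, FKF1, RVE8 and TFL1 stood at the 56.2, 69.3, 84.4, 86.3 and 94.2 percent points of the ranking from the top. GRP8 stood at 53.3 percent in replicate 2. When replicate 1 was reduced to its 430 highest scoring peaks, the length of the replicate 2 list, the lowest score kept was 75.4, GRP7 was its only bound member, and the other 5 were lost. Their absence from replicate 2 therefore coincides with low scores in replicate 1, and whether more reads would have brought them into replicate 2 was not tested. The member peaks were 1822 bp wide in the median in replicate 1, against 1724 bp for the list. GAGA motifs occurred 1.77 times per kb under the 6 member peaks of replicate 1, against 2.09 per kb in the list. The rate was 2.81 per kb under the 2 member peaks of replicate 2, against 2.14 in that list. In replicate 2 the GRP7 peak held 3 matches in 1805 bp and the GRP8 peak 6 in 1400 bp. None of the 8 member peaks overlapped a Col-0 peak.

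**Figure D4:**
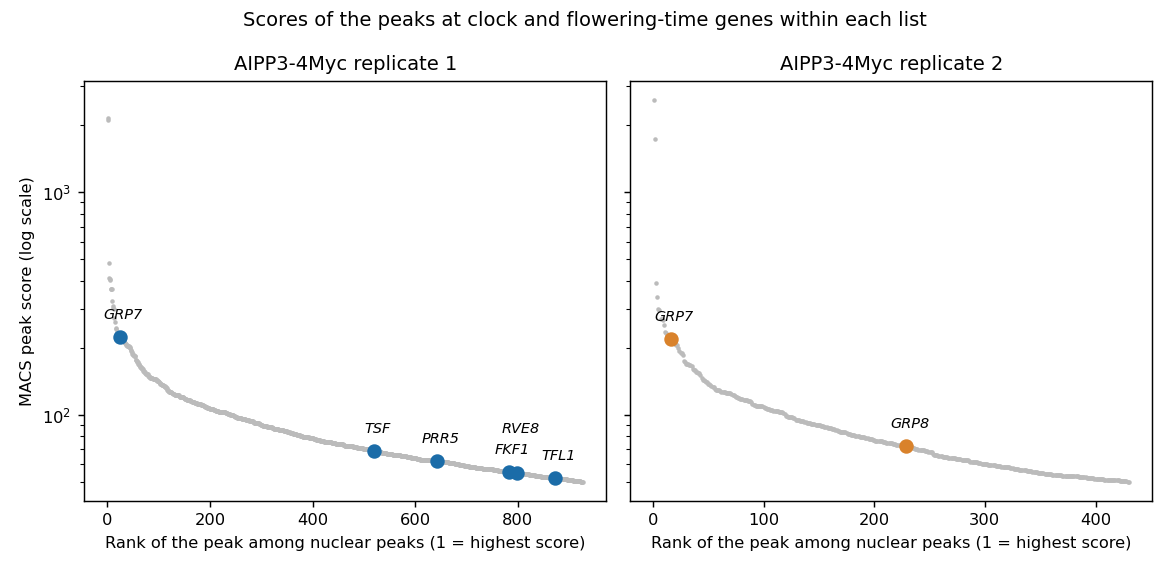
MACS peak score (log scale) against the rank of the peak among nuclear peaks, for AIPP3-4Myc replicate 1 (left) and replicate 2 (right). Grey points are all peaks and coloured points are peaks at clock and flowering-time genes. GRP7 stands near the top of both lists, and the other members lie in the lower flat part of the curves.

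Other genes of the same pathways were then looked up. From a list of 83 symbols without MADS-box genes, 72 matched a gene by symbol, and 63 of these were protein-coding. Replicate 1 bound 6 of the 63 (9.52%), replicate 2 bound 5 (7.94%) and both bound 3 (4.76%), against the 5.11%, 2.28% and 1.67% of all protein-coding genes given above, and Col-0 bound none. The 3 genes bound in both were TEM1, TEM2 and SPA4, all of the photoperiod group. TEM1 (AT1G25560) and TEM2 (AT1G68840) encode related repressors of FT. The TEM1 peaks had scores of 145 in replicate 1 and 110 in replicate 2 and lay from 97 to 1700 bp and from 107 to 1305 bp downstream of the TSS, in a gene of 1759 bp. The TEM2 peaks had scores of 94.5 in replicate 1 and 109 in replicate 2 and reached from -162 to 1969 bp and from 38 to 1746 bp, in a gene of 2068 bp. SPA4 (AT1G53090), a partner of the COP1 ubiquitin ligase that removes CO in the dark, had peaks with scores of 72.5 and 57.1 in replicates 1 and 2 that reached from -2127 to -598 bp and from -2126 to -821 bp from its TSS. They lay mostly outside its target region, with 403 bp and 180 bp inside, and SPA4 was not bound in both replicates when the gene body, the peak midpoint or an overlap of 200 bp was required. The count of 3 was then 2, with TEM1 and TEM2, and it was 1, TEM1, with a score of at least 100 (settings chosen after seeing the data). The clock genes CHE, TIC and COR27 were bound in replicate 1 alone, with scores of 50.7, 65.8 and 121. The score of COR27 was above 75.4, the lowest kept when replicate 1 was reduced to the length of the replicate 2 list. The CO relatives COL4 and COL5 were bound in replicate 2 alone, with scores of 103 and 61.2. No matched gene of the florigen, age, photoreceptor, vernalization or autonomous groups was bound.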

How the data were processed

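Per the methods of the study, the authors mapped reads to TAIR10 with Bowtie2 (version 2.2.8) and ran MACS (version 1.4) at its default settings to find peaks. The authors deposited 1 peak list per library, with the start, the end and the MACS score of each peak, which is 10 times the negative log10 of its p-value. Whether a control library entered the peak calls, and the number of reads, is not given in the sources used here, so the depth is unknown.

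Gene models and sequence came from RefSeq on TAIR10.1. Every nuclear peak ended within its chromosome there. Starts were turned to 1-based positions. Bases were counted as coding, then untranslated, then intron, over all transcripts of a gene, and distances were taken from the target region to the nearest peak end. Identity is that of the annotated coding sequences that aligned best (Biopython 1.88). Scripts ran in Python 3.11.15 with pandas 2.3.3 and were tested on simulated peaks with known overlaps.

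Genes were named by rule. All members with a peak were described, as were FT and GRP7, the unbound members with a peak within 5 kb, and other pathway genes bound in both replicates. The members and lists were chosen with earlier results of these data known. Other symbols were matched to RefSeq names, and the 11 of 83 that matched no gene or more than 1 were not used. No test was made.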

Additional observations from a re-analysis of the deposited data

How the results depend on the processing

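GRP7 was bound in both AIPP3-4Myc replicates under each of the 9 settings that kept both. No member was bound in Col-0 under the settings run for it. With 16 nuclear peaks and 0.0547% of all protein-coding genes bound, the Col-0 list could hardly have given another outcome. The 6 members bound in replicate 1 fell to 1 with a score of at least 100 and to 1 when the list was reduced to the number of replicate 2 peaks. They were 5, without RVE8, for the gene body, the peak midpoint or the nearest TSS. For a region from 3 kb upstream to the TTS they were 8, with SPL5 and LUX. The 2 bound in replicate 2 became 1 with a score of at least 100, and 3, with LUX, for the region from 3 kb upstream. The 1 bound in both became 2, with LUX, for a region from 3 kb upstream to the TTS. Asking for 1 replicate only, it was 2 (without replicate 1) and 6 (without replicate 2). For the 49 members, a required overlap of 200 bp changed no count. Leaving out peaks that overlap Col-0 could change none, because no member peak overlapped a Col-0 peak. TSF, TFL1, FKF1 and PRR5 were each lost under 2 of 9 settings, RVE8 under 5 and GRP8 under 1. No paired analysis was possible because Col-0 has 1 library, whose title gives no replicate number (its number 1 is only a name), so the groups share fewer than 2 numbers. Depth is unknown, so a missing peak limits what can be said of any unbound gene.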
